A study of Homo sapiens with 24 samples.

Results

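Untreated A2780 cells harvested 12 h after a change to fresh standard growth medium were compared with untreated A2780 cells harvested 6 h after that change, by whole-transcriptome sequencing of total RNA. A2780 is an established human ovarian cancer cell line that is sensitive to platinum drugs. The libraries were chosen by their labels, line A2780, agent control and time 6 h or 12 h, which gave 6 of the 24 libraries of the series, with 3 at each time. The cells had been seeded in flasks and grown before the medium was replaced, received no drug, and stayed in the same kind of medium (RPMI1640 with glutamine, fetal calf serum and antibiotics) until RNA extraction. The other libraries were of A2780 treated with 5-FdU-ECyd, a duplex drug of joined nucleoside analogues, and of A2780cis, the platinum-resistant derivative of A2780, with and without that drug, at the same times. In the study the untreated libraries served as controls for the drug, and the comparison of their times asks how far the controls themselves moved. The study calls the replicates biological triplicates without saying what separated them, such as flasks or passages, and p-values measure the spread between these libraries. No label gives a date of harvest, extraction or library preparation, so time in culture and any step carried out by time point cannot be told apart.

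A change of medium supplies fresh serum growth factors, lipids, glucose and amino acids, and dilutes what the cells have secreted. Serum first induces immediate early transcription factors and BMP targets such as the ID genes, and can reset the circadian oscillator. It also prompts cells to build ribosomes and enter the cell cycle. There G1/S genes (driven by E2F factors) precede the G2/M genes (driven by MYB and FOXM1 bound through the MuvB complex). As glucose and oxygen are used up, hypoxia-inducible and FOXO-driven genes tend to rise.

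The libraries held 14372622, 11704301 and 11216446 gene-assigned counts at 6 h and 15253875, 17423522 and 19283327 at 12 h, so every 12 h library was deeper than every 6 h library. Levels are given as CPM, counts scaled by the TMM-scaled library total, which is the total over tested genes multiplied by the library's TMM factor. The factors were 0.9705, 0.904 and 0.9818 at 6 h and 0.9945, 0.9924 and 1.01 at 12 h. CPM values and their overlap between the times therefore depend on these factors, and differ from scaling by library size alone. Of the markers fixed for cell types, the 9 mesenchymal genes summed to 2236 to 2521 CPM at 6 h and 2529 to 2791 CPM at 12 h, of which VIM alone gave a mean of 2091 CPM at 6 h and 2367 CPM at 12 h, and the 9 fibroblast genes summed to 485 to 545 CPM at 6 h and 603 to 624 CPM at 12 h. The 10 epithelial genes summed to 2.59 to 3.78 CPM at 6 h and 4.17 to 5.41 CPM at 12 h, with CDH1 and KRT7 at 0 in all 6 libraries. The 10 ovarian and Mullerian genes summed to 121 to 136 CPM at 6 h and 144 to 186 CPM at 12 h, nearly all of it from ARID1A, which many tissues express (120.5 to 185 CPM over the 6 libraries), with FOLR1 at 0.463 to 1.09 CPM and the other 8 below 0.5 CPM in every library, WT1 and SOX17 at 0. All 4 of these sums were apart between the times and higher at 12 h, and their part in the other results was not tested. The 9 leukocyte genes summed to 2.58 to 4.48 CPM at 6 h and 3.13 to 3.76 CPM at 12 h and the 6 endothelial genes to 0.158 to 0.273 CPM at 6 h and 0.0514 to 0.198 CPM at 12 h. Replicates 2 and 3 at 12 h stood apart in structural RNA: genes of the rRNA class gave 25.8, 13.97 and 11.2 CPM at 6 h but 13.8, 414 and 303 CPM at 12 h, and 27 small structural RNA genes gave 11.1, 7.38 and 8.52 CPM at 6 h and 7.19, 60.3 and 42.5 CPM at 12 h. The 4 near-identical genes within the ribosomal DNA of chromosome 21, whose reads cannot be told apart, summed to 329.6, 188 and 246 CPM at 6 h and 271, 2889 and 2813 CPM at 12 h. Of 21 tested genes of the rRNA class, 20 were called higher at 12 h, and since replicate 1 at 12 h lay within or just under the 6 h range for the sums above, those calls rest on replicates 2 and 3; the part of this RNA in the other results was not tested. Genes of the mitochondrial genome gave 6.45, 7.07 and 5.96% of the TMM-scaled library total at 6 h and 6.46, 6.60 and 6.26% at 12 h, with overlapping groups. Their shares of the unscaled counts were not computed.

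Many genes differed between the times, and most differences were small. With edgeR's quasi-likelihood test on TMM-scaled counts and Benjamini-Hochberg adjustment (called at an adjusted p of at most 0.05), 5435 of 20240 genes tested were called (26.9%), 3354 up-regulated at 12 h (16.6%) and 2081 down-regulated (10.3%). Of these, 551 had a log2 fold change (log2 FC, 12 h minus 6 h) above 1 and 89 below -1, and over all tested genes the median absolute log2 FC was 0.30. The 3 and 3 CPM values of 9330 genes (46.1%) did not overlap between the times. Genes were ranked among called protein-coding genes whose log2 CPM averaged 2 or more and whose libraries did not overlap. The 12 largest increases among these were VMO1 (1.74), FCHO1 (1.57), CSPG4 (1.53), EGFL7 (1.51), PARP10 (1.48), JUP (1.48), HSPB1 (1.46), FLYWCH2 (1.45), CD248 (1.44), NHERF2 (1.42), RHPN1 (1.41) and MED16 (1.41). Their exons held 59.5 to 68.2% GC, against a median of 47.99% over tested genes. The 12 largest decreases were NEXN (-0.995), UTS2B (-0.96), CCNE2 (-0.93), ING3 (-0.88), PI15 (-0.86), SKIL (-0.86), RYR3 (-0.85), ID2 (-0.84), UBXN8 (-0.82), KCNRG (-0.82), SLC30A1 (-0.81) and GPM6B (-0.80), with 33.2 to 52.6% GC.

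VMO1, a secreted protein gene, had 4.67, 6.25 and 11.6 CPM at 6 h and 23.96, 25.8 and 24.4 CPM at 12 h (log2 FC 1.74 ± 0.29, adjusted p = 0.00055). Here and below, ± gives a standard error, the absolute log2 FC over the square root of the test's F value. NEXN, which encodes an actin-binding protein, had 34.4, 28.5 and 33.5 CPM at 6 h and 18.4, 17.2 and 12.9 CPM at 12 h (log2 FC -0.995 ± 0.14, adjusted p = 0.00013). The naming rule admitted only genes whose libraries did not overlap between the times. Replicate 1 at 6 h was the lowest library for VMO1 and the highest for NEXN.

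GC content ran through the whole comparison. Across 19889 tested genes with a known exonic sequence, log2 FC and GC content had a Spearman rho of 0.653 (across genes, which share the same libraries and are not independent replicates). The median log2 FC climbed from -0.31 in the lowest GC decile to 0.71 in the highest. In the lowest decile 0.251% of genes were called higher at 12 h and 29.4% lower, whereas in the highest decile 53.4% were called higher and 0.101% lower. The trend was also a trend between replicates of one time. In the highest decile, library medians relative to the mean of the 6 libraries were -0.64, -0.28 and -0.06 at 6 h and 0.26, 0.31 and 0.42 at 12 h on the log2 scale. The gap between 6 h replicates 1 and 3 was thus larger than that between 6 h replicate 3 and 12 h replicate 3. In the lowest decile the medians were 0.24, 0.14 and 0.07 at 6 h and -0.04, -0.09 and -0.31 at 12 h. The groups did not overlap in either decile.

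**Figure D1:**
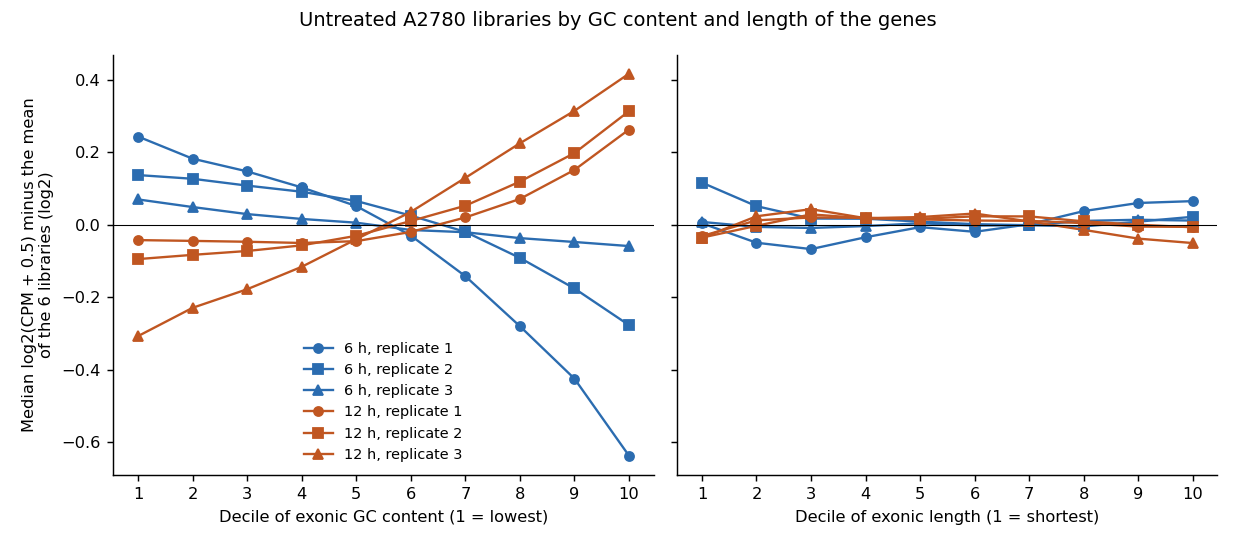
Median log2(CPM + 0.5) of the genes in each decile of exonic GC content (left) and exonic length (right), minus the mean of the 6 untreated A2780 libraries, for 3 libraries at 6 h (blue) and 3 at 12 h (orange), with 1246 genes per decile. The 6 h lines fall and the 12 h lines rise with GC content, from 6 h replicate 1 (-0.64 in the highest decile) to 12 h replicate 3 (0.42), while the length lines stay near 0.

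Over all these genes, exonic length had little relation to the time difference (rho 0.0228). Median log2 FC lay between -0.11 and 0.06 over the length deciles, and GC content and length were themselves weakly related (rho -0.18). Within genes of high GC content, the short ones had a median log2 FC of 0.38 and the long ones 0.51, whereas genes of low GC content had -0.28 and -0.23. The same rho of log2 FC and GC content was 0.668 for 12 h against 6 h in untreated A2780cis, 0.240 in drug-treated A2780 and 0.506 in drug-treated A2780cis. It was 0.473 for drug against control in A2780 at 6 h, a comparison within one time that shares the 6 h controls, and 0.0952 at 12 h. Whether the GC trend arose in the cells or in the handling of the RNA cannot be told apart here.

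The comparison was therefore also fitted with GC and length offsets. These are smooth curves of each library's deviation on exonic GC content and then on length, so that each gene is read relative to those 2 trends. The offsets also take out any real change that follows GC content, and leave a rho of 0.0894 with GC content and -0.0104 with length. GC content and length were fitted in turn and not jointly. With offsets the median log2 FC was -0.07 for long genes of low GC content and 0.06 for long genes of high GC content. With offsets 2447 genes were called (12.1%), 1141 higher at 12 h (5.64%) and 1306 lower (6.45%), with 72 above a log2 FC of 1 and 63 below -1. The 3 and 3 values of CPM adjusted by the offsets did not overlap for 6519 genes (32.2%), against 46.1% of genes as CPM. Where the CPM of a gene is printed below, overlap is that of its CPM. Of the 5435 genes called by TMM scaling, 1773 were called with offsets too, 1767 in the same direction and 6 in the opposite one, which is 32.5% of the calls by TMM scaling and 72.2% of the calls with offsets. The remaining 674 were called with offsets alone. Without 12 h replicates 2 and 3, which carried the structural RNA, 10 genes were called by TMM scaling and 73 with offsets, all 73 of them among the 2447 and in the same direction, and 2438 of the 2447 kept their sign; only 1 library was then left at 12 h, and it was assumed to vary like the other groups.

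**Figure D2:**
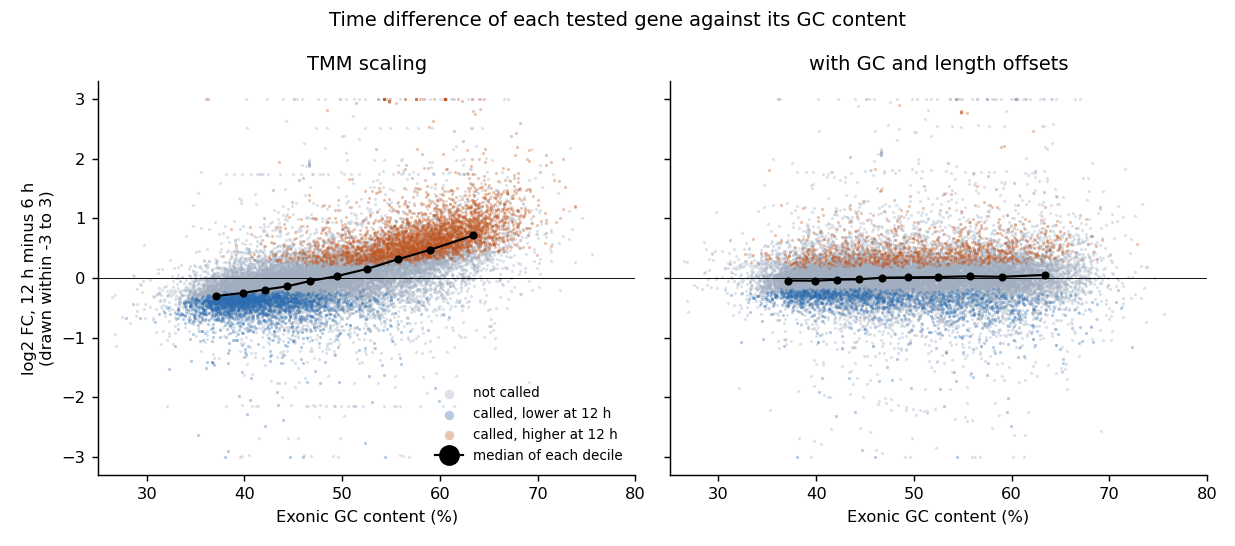
Log2 FC (12 h minus 6 h) of each tested gene against its exonic GC content in percent, by TMM scaling (left) and with GC and length offsets (right), with called genes in orange (higher at 12 h) and blue (lower) and the median of each GC decile in black. The black line climbs from -0.31 to 0.71 on the left and runs from -0.04 to 0.05 on the right.

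Fits with libraries left out keep the other libraries of the full fit, so agreement with its calls in sign is not an independent check. Of 238 genes named here that were called with offsets, 116 kept the call whichever single library was left out. The call ended for 88, 63 and 47 of them without 6 h replicates 1, 2 and 3, and for 43, 75 and 94 without 12 h replicates 1, 2 and 3. It ended in each of these single removals for CDC25B, CDC6, H2BC26, H3C8, HES6, INSR, PRIM2, PSMD8 and RFC5. Without 12 h replicates 2 and 3 together, 24 kept it: ANKZF1, APAF1, BZW1-AS1, CCNB2, CCNE2, CCNG2, ENSG00000204620, ENSG00000233223, ENSG00000258924, FLYWCH2, GPAM, ID1, ID2, JUP, MIR22HG, MORN4, MT-TS1, NEXN, PFKFB4, SKIL, SRF, UBTF, UBXN8 and VMO1. Most gene lists below are also counted without each library in turn, and a list counted in that way had 0 genes called in either direction without both of these libraries, unless another count is given.

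By the same rule the 12 largest increases with offsets were VMO1 (1.19), CCNG2 (1.12), FCHO1 (1.05), MORN4 (1.04), FLYWCH2 (0.98), BTN2A2 (0.97), FZD2 (0.94), PFKFB4 (0.94), HFE (0.94), AGTRAP (0.94), ATP6V0E2 (0.91) and JUP (0.90), and the 12 largest decreases were RYR3 (-0.95), ID2 (-0.93), MST1 (-0.92), ENSG00000124593 (-0.89), UTS2B (-0.86), DUSP28 (-0.85), MRPL21 (-0.81), SLC51A (-0.79), SNORC (-0.79), KCP (-0.79), UBXN8 (-0.78) and HSPA8 (-0.77). MST1, KCP, SNORC and MRPL21 were not called by TMM scaling, and MST1 has near-identical copies that can share its reads. CCNG2, an unconventional cyclin found in cells leaving the cycle, had 9.12, 6.06 and 6.82 CPM at 6 h and 13.4, 16.7 and 14.1 CPM at 12 h (log2 FC 1.00 ± 0.18, adjusted p = 0.00078 and offset log2 FC 1.12 ± 0.14, adjusted p = 1.8e-05). RYR3, an intracellular calcium channel, had 10.2, 6.91 and 9.28 CPM at 6 h and 4.49, 5.50 and 4.68 CPM at 12 h (log2 FC -0.85 ± 0.17, adjusted p = 0.0015 and offset log2 FC -0.95 ± 0.16, adjusted p = 0.00066). HFE, which restrains iron uptake through the transferrin receptor, had 5.24, 4.54 and 5.18 CPM at 6 h and 7.53, 9.84 and 9.25 CPM at 12 h (offset log2 FC 0.94 ± 0.13, adjusted p = 7e-05). These genes too were chosen for libraries that did not overlap.

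The BMP and TGF-beta response genes that passed the test with offsets were lower at 12 h, apart from TGIF1. These cytokines act through SMAD factors, which induce the ID inhibitors of differentiation as well as the pathway's own brakes, SMAD6, SMAD7 and SKIL. Of 25 genes listed and 18 tested, 4 rose and 5 fell by TMM scaling (median log2 FC -0.21), and 1 rose and 7 fell with offsets (median -0.24), or 5.56% and 38.9% of those tested against 5.64% and 6.45% of all genes. Among the genes that fell with offsets were ID2 (-0.93), ID1 (-0.67), SKIL (-0.63), SMAD6 (-0.61), SMAD7 (-0.53) and SMAD9 (-0.47), and TGIF1 (0.26), a repressor of SMAD transcription, rose. Of the BMP and TGF-beta response genes, 1, 0 and 0 rose without 6 h replicates 1, 2 and 3 and 1, 1 and 0 without 12 h replicates 1, 2 and 3, and 6, 5 and 6 fell without 6 h replicates 1, 2 and 3 and 7, 6 and 5 without 12 h replicates 1, 2 and 3, with 0 up and 3 down when 12 h replicates 2 and 3 were both left out. By TMM scaling SKI, TGFB1 and BMP7 also rose, which the offsets did not keep.

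ID2 had 143, 163 and 140.4 CPM at 6 h and 87.7, 83.8 and 77.5 CPM at 12 h (log2 FC -0.84 ± 0.10, adjusted p = 3.7e-05 and offset log2 FC -0.93 ± 0.10, adjusted p = 5.4e-06). ID1 had 32.2, 39.5 and 39.9 CPM at 6 h and 26.7, 30.2 and 31.4 CPM at 12 h (log2 FC -0.33 ± 0.12, adjusted p = 0.04 and offset log2 FC -0.67 ± 0.08, adjusted p = 7.9e-06). SKIL had 192, 158 and 157 CPM at 6 h and 97.4, 96.7 and 86.2 CPM at 12 h (log2 FC -0.86 ± 0.14, adjusted p = 0.00039 and offset log2 FC -0.63 ± 0.07, adjusted p = 5.5e-06). For all 3 genes every 12 h value lay below every 6 h value. SMAD6 had 36.1, 26.6 and 37.1 CPM at 6 h and 29.2, 26.8 and 30.5 CPM at 12 h. It was not called by TMM scaling (log2 FC -0.21 ± 0.14, adjusted p = 0.27), but fell with offsets (offset log2 FC -0.61 ± 0.12, adjusted p = 0.0016). The SMAD6 libraries overlapped as CPM.

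The palindromic SMAD box GTCTAGAC was searched in the 250 bases before the start of each gene (RefSeq promoters on GRCh38.p14, both strands), where 0.176% of 27305 promoters hold it. Of 6 matched promoters of BMP and TGF-beta genes that fell, 1 held it, that of SMAD6 at chr15:66701986-66702235 (plus strand), printed 5′ to 3′ with the box in capitals.
SMAD6: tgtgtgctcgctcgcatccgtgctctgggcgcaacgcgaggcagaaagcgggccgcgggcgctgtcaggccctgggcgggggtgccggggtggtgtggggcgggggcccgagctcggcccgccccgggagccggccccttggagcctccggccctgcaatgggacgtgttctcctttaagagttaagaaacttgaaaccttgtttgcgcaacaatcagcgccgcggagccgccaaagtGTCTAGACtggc

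G2/M genes that passed the test with offsets were higher at 12 h, though most did not pass, and G1/S genes were called in both directions. Of the 50 G1/S and DNA replication genes, 4 rose and 10 fell with offsets (median log2 FC -0.02), and 14 rose and 10 fell by TMM scaling (median -0.03). With GC offsets alone 5 rose and 6 fell. The difference between the G1/S and G2/M lists was not tested. Of the 50 G2/M and mitosis genes, 16 rose and 0 fell with offsets (median 0.11), and 13 rose and 3 fell by TMM scaling, where the median was -0.04 and so of the opposite sign; under scaling by library size alone it was 0.03, and that of the G1/S list turned to 0.04. With offsets these counts are 8% and 20% of those tested against 5.64% and 6.45% of all genes for the G1/S list and 32% and 0% for the G2/M list. Of the G1/S and DNA replication genes, 1, 3 and 1 rose without 6 h replicates 1, 2 and 3 and 2, 1 and 1 without 12 h replicates 1, 2 and 3, and 6, 4 and 9 fell without 6 h replicates 1, 2 and 3 and 6, 5 and 5 without 12 h replicates 1, 2 and 3, with 0 up and 1 down when 12 h replicates 2 and 3 were both left out. Of the G2/M and mitosis genes, 7, 13 and 8 rose without 6 h replicates 1, 2 and 3 and 10, 8 and 11 without 12 h replicates 1, 2 and 3, and 0 fell whichever single library was left out, with 1 up and 0 down when 12 h replicates 2 and 3 were both left out. In bulk RNA, fewer cells in a phase and less RNA per cell cannot be told apart.

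Among G1/S genes, CCNE2, the cyclin E2 that starts S phase, had 44.8, 49.4 and 45.5 CPM at 6 h and 24.8, 26.4 and 22.04 CPM at 12 h (log2 FC -0.93 ± 0.12, adjusted p = 5.3e-05 and offset log2 FC -0.72 ± 0.07, adjusted p = 5.4e-06). GINS2, a subunit of the replicative helicase, had 108, 123 and 106 CPM at 6 h and 85.5, 84.6 and 86.02 CPM at 12 h (offset log2 FC -0.45 ± 0.08, adjusted p = 0.0011). RRM2, the regulatory subunit of ribonucleotide reductase, had 325, 351 and 307 CPM at 6 h and 264, 269.8 and 273 CPM at 12 h (offset log2 FC -0.35 ± 0.09, adjusted p = 0.012). None of the 3 genes overlapped between the times. The other genes that fell with offsets were MCM7 (-0.27), CDC25A (-0.27), RRM1 (-0.24), MCM10 (-0.23), MCM6 (-0.20), RFC5 (-0.18) and CDC6 (-0.18), of which MCM6, MCM7, MCM10 and CDC6 load or fire replication origins. Those that rose were POLD1 (0.48), CHAF1B (0.27), PRIM2 (0.24) and POLA2 (0.20), 3 of them parts of the replicative polymerases and CHAF1B a histone chaperone. By TMM scaling MCM2 (0.54) and MCM5 (0.50) rose while MCM6 (-0.37) and MCM10 (-0.32) fell, a split that followed their GC contents of 55.99%, 55.1%, 42.4% and 44.1%. For RRM2, leaving out 6 h replicate 2 or 12 h replicate 3 ended the call with offsets (adjusted p = 0.0501 to 0.0614). The calls of RFC5, CDC6 and PRIM2 ended whichever single library was left out. Those of RRM1, MCM6, CHAF1B and POLA2 each held in 1 single removal only. MCM7 had the opposite sign by TMM scaling.

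Among G2/M genes, NEK2, a centrosome kinase, had 39.99, 35.3 and 41.6 CPM at 6 h and 48.3, 49.4 and 44.3 CPM at 12 h (log2 FC 0.28 ± 0.11, adjusted p = 0.068 and offset log2 FC 0.49 ± 0.08, adjusted p = 0.00061). CCNB2, cyclin B2, had 69.6, 76.8 and 69.3 CPM at 6 h and 88.8, 83.6 and 79.1 CPM at 12 h (log2 FC 0.22 ± 0.09, adjusted p = 0.078 and offset log2 FC 0.35 ± 0.06, adjusted p = 0.00093). CENPA, the histone of centromeres, had 17.7, 15.99 and 15.6 CPM at 6 h and 19.5, 20.4 and 21.8 CPM at 12 h (log2 FC 0.32 ± 0.11, adjusted p = 0.028 and offset log2 FC 0.38 ± 0.09, adjusted p = 0.0069). In each of the 3 genes all 12 h libraries lay above all 6 h libraries, with gaps that were small beside the levels. INCENP (0.42) and AURKB (0.26) of the chromosomal passenger complex, separase ESPL1 (0.41), the kinetochore subunits NUF2 (0.37) and SPC25 (0.27), the phosphatases CDC25C (0.34) and CDC25B (0.27), GTSE1 (0.36), KIF20A (0.27), TPX2 (0.25) and BIRC5 (0.19) were among the others that rose. The CDC25B call ended whichever single library was left out, and those of INCENP and BIRC5 each held in 1 single removal only. CKAP2, KIF23 and ANLN, with GC contents of 36.4%, 40.2% and 40.2%, fell by TMM scaling (-0.46, -0.32 and -0.29) and were not called with offsets (-0.19, -0.16 and -0.13).

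The cell cycle homology region (CHR, TTTGAA), through which MuvB complexes bind, lies in 13.6% of the 27305 promoters and in 7 of 14 matched promoters of G2/M genes that rose, and the CCAAT box in 33.04% and in 11 of 14 (both strands; the letters do not overlap). The E2F site TTTGGCGC lies in 0.553% of all promoters and in 2 of 9 matched promoters of G1/S genes that fell, and the CCAAT box in all 9. The promoters below, 250 bases each on GRCh38.p14 and printed 5′ to 3′ on the strand of the gene, show the CHR in capitals for CCNB2 at chr15:59104896-59105145 (plus strand), CENPA at chr2:26785806-26786055 (plus strand) and GTSE1 at chr22:46296620-46296869 (plus strand), and the E2F site in capitals for CDC25A at chr3:48188418-48188667 (minus strand). In GTSE1 the CHR lies on the other strand and reads TTCAAA. The CHR starts 29, 18 and 26 bases before the annotated start in the first 3, and the E2F site 44 bases before it in CDC25A.
CCNB2: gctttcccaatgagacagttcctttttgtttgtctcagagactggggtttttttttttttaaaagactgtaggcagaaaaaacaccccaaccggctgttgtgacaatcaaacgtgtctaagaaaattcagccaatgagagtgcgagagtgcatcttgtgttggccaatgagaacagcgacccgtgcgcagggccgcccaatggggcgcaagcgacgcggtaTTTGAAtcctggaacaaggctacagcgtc
CENPA: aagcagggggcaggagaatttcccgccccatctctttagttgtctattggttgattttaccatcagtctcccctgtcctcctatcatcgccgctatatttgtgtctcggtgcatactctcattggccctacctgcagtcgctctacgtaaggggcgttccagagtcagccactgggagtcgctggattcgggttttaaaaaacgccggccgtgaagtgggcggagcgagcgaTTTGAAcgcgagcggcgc
GTSE1: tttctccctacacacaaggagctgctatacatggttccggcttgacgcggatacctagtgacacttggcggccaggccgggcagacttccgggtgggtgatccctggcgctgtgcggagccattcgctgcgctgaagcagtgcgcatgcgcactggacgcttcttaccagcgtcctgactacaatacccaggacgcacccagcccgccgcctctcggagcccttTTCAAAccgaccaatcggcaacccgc
CDC25A: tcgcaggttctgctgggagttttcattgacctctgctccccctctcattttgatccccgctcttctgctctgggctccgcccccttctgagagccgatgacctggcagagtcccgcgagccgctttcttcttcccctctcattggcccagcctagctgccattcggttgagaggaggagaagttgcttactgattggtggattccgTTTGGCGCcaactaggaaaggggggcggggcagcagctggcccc

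A match is a description of the letters and not evidence of binding. Replication-dependent histone transcripts, which lack poly(A) tails but are kept by a total RNA library, gave 2 increases, H2BC18 (1.82) and H2BC26 (0.63), and 2 decreases, H3C8 (-1.26) and H4C9 (-0.67), with offsets among 26 tested of 64 listed. These counts are 7.69% and 7.69% of those tested against 5.64% and 6.45% of all genes. The calls of H2BC26 and H3C8 ended whichever single library was left out, and that of H2BC18 held only without 12 h replicate 1. H2BC18 stood at 0.215, 0.0946 and 0.182 CPM at 6 h and 0.330, 0.579 and 0.719 CPM at 12 h, close to the limit of counting, and its libraries did not overlap. Of the replication-dependent histone genes, 0, 0 and 0 rose without 6 h replicates 1, 2 and 3 and 1, 0 and 0 without 12 h replicates 1, 2 and 3, and 0, 1 and 1 fell without 6 h replicates 1, 2 and 3 and 1, 1 and 0 without 12 h replicates 1, 2 and 3.

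With offsets PER1, NR1D1 and CRY1 rose and CLOCK fell, and the other clock genes tested were not called. In this oscillator CLOCK and BMAL1 activate PER, CRY and NR1D1 genes through E-boxes, and the products of those genes repress CLOCK and BMAL1 activity or expression in turn. Of 24 tested clock genes, 8 rose and 1 fell by TMM scaling (median 0.20), and 3 rose and 1 fell with offsets (median 0.03), against 5.64% and 6.45% of all genes with offsets. PER1 had 11.8, 17.9 and 20.2 CPM at 6 h and 33.5, 37.1 and 39.8 CPM at 12 h (log2 FC 1.16 ± 0.19, adjusted p = 0.00048 and offset log2 FC 0.52 ± 0.10, adjusted p = 0.0012). NR1D1, which encodes the nuclear receptor REV-ERB alpha, had 2.66, 3.79 and 3.91 CPM at 6 h and 7.79, 8.16 and 9.25 CPM at 12 h (log2 FC 1.301 ± 0.16, adjusted p = 5.3e-05 and offset log2 FC 0.89 ± 0.14, adjusted p = 0.00023). CLOCK had 114, 104 and 101 CPM at 6 h and 78.2, 75.6 and 63.8 CPM at 12 h (log2 FC -0.55 ± 0.12, adjusted p = 0.003 and offset log2 FC -0.37 ± 0.06, adjusted p = 0.00054). These 3 genes did not overlap between the times. Of the circadian clock genes, 3, 3 and 3 rose without 6 h replicates 1, 2 and 3 and 3, 2 and 2 without 12 h replicates 1, 2 and 3, and 1, 1 and 2 fell without 6 h replicates 1, 2 and 3 and 1, 1 and 1 without 12 h replicates 1, 2 and 3. CRY1 had 46.2, 37.6 and 40.6 CPM at 6 h and 43.4, 48.99 and 46.2 CPM at 12 h, overlapped as CPM, and was called with offsets only (offset log2 FC 0.33 ± 0.09, adjusted p = 0.016). DBP (0.79) and BHLHE40 (0.33) were among the other genes that rose by TMM scaling and were not called with offsets. For CRY1, leaving out 6 h replicate 2 or 12 h replicate 2 or 3 ended the call with offsets (adjusted p = 0.0738 to 0.0888).

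The E-box CACGTG lies in 6.49% of all promoters and the E′-box CACGTT in 4.50%. Among the 3 clock genes that rose with offsets, the PER1 promoter at chr17:8152405-8152654 (minus strand) held the E-box and those of NR1D1 at chr17:40100590-40100839 (minus strand) and CRY1 at chr12:107093550-107093799 (minus strand) held the E′-box, shown in capitals on the strand of the gene (250 bases, GRCh38.p14; an E′-box on the other strand reads AACGTG).
PER1: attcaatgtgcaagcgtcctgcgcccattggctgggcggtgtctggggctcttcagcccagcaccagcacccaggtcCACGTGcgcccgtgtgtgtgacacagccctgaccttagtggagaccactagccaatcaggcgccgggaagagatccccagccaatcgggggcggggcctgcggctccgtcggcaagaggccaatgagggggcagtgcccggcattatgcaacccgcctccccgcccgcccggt
NR1D1: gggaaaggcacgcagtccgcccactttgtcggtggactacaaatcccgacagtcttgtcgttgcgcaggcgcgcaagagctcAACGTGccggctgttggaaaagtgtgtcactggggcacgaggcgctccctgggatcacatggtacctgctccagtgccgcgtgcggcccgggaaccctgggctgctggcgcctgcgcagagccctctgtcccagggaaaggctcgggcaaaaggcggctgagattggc
CRY1: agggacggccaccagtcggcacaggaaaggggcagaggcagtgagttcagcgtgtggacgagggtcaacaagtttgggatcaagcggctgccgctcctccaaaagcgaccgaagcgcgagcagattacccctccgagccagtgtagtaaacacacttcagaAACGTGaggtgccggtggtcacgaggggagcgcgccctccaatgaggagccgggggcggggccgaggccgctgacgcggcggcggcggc

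Immediate early genes, which serum induces within minutes and for a short time, were not uniformly lower at 12 h. Of 36 tested, 13 rose and 0 fell by TMM scaling (median 0.39), and 4 rose and 1 fell with offsets (median -0.01), or 11.1% and 2.78% of those tested against 5.64% and 6.45% of all genes, so the median changed sign. Of the immediate early genes, 2, 3 and 1 rose without 6 h replicates 1, 2 and 3 and 3, 1 and 2 without 12 h replicates 1, 2 and 3, and 1 fell whichever single library was left out, with 0 up and 1 down when 12 h replicates 2 and 3 were both left out. EGR1, a zinc finger factor, had 5.89, 6.72 and 5.27 CPM at 6 h and 9.37, 11.2 and 11.9 CPM at 12 h (log2 FC 0.87 ± 0.15, adjusted p = 0.00066 and offset log2 FC 0.61 ± 0.17, adjusted p = 0.018). MYC, which drives growth and ribosome synthesis, had 48.9, 70.1 and 66.2 CPM at 6 h and 87.4, 91.8 and 103 CPM at 12 h (log2 FC 0.61 ± 0.11, adjusted p = 0.00094 and offset log2 FC 0.47 ± 0.09, adjusted p = 0.0015). ZFP36, which destabilises AU-rich mRNA, had 4.81, 5.68 and 5.82 CPM at 6 h and 8.71, 10.2 and 8.48 CPM at 12 h (offset log2 FC 0.40 ± 0.13, adjusted p = 0.046). For all 3 genes every 12 h library lay above every 6 h library. ZFP36L1 rose with offsets too (0.30), and SRF, the serum response factor itself, fell (offset log2 FC -0.63 ± 0.09, adjusted p = 9.1e-05) though its CPM overlapped between the times (56.4, 73.2 and 72.9 CPM at 6 h and 55.4, 63.3 and 73.1 CPM at 12 h). FOS was not called (log2 FC 0.37, adjusted p = 0.14; with offsets 0.20, adjusted p = 0.57), and JUNB and FOSB rose by TMM scaling only (0.92 and 0.84). Of 16 tested genes of ERK output and feedback, 2 rose with offsets, ETV5 (0.40) and ETV1 (0.39), and 0 fell. These counts are 12.5% and 0% of those tested against 5.64% and 6.45% of all genes. Of the ERK output and feedback genes, 1, 1 and 2 rose without 6 h replicates 1, 2 and 3 and 2, 1 and 1 without 12 h replicates 1, 2 and 3, and 0 fell whichever single library was left out. For EGR1, leaving out 6 h replicate 3 or 12 h replicate 2 or 3 ended the call with offsets (adjusted p = 0.0585 to 0.0942). For ZFP36, leaving out 6 h replicate 1 or 2 or 3 or 12 h replicate 1 or 2 ended the call with offsets (adjusted p = 0.0704 to 0.194).

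Several hypoxia-inducible genes rose. Of 29 tested, 11 rose and 1 fell by TMM scaling (median log2 FC 0.26), and 10 rose and 1 fell with offsets (median 0.10), against 5.64% and 6.45% of all genes. PFKFB4, a kinase and phosphatase that tunes glycolysis, had 5.53, 6.91 and 6.37 CPM at 6 h and 15.8, 13.3 and 16.3 CPM at 12 h (log2 FC 1.28 ± 0.12, adjusted p = 2.5e-06 and offset log2 FC 0.94 ± 0.11, adjusted p = 1.4e-05). SLC2A1, the glucose transporter GLUT1, had 22.97, 30.1 and 27.3 CPM at 6 h and 37.2, 41.8 and 47.6 CPM at 12 h (log2 FC 0.66 ± 0.13, adjusted p = 0.0018 and offset log2 FC 0.42 ± 0.10, adjusted p = 0.0089). P4HA2, a collagen prolyl hydroxylase, had 9.62, 10.3 and 11.9 CPM at 6 h and 14.8, 16.1 and 16.6 CPM at 12 h (offset log2 FC 0.60 ± 0.10, adjusted p = 0.00055). The times did not overlap in any of the 3 genes. Of the hypoxia-inducible genes, 7, 9 and 7 rose without 6 h replicates 1, 2 and 3 and 10, 7 and 5 without 12 h replicates 1, 2 and 3, and 0, 1 and 0 fell without 6 h replicates 1, 2 and 3 and 0, 0 and 0 without 12 h replicates 1, 2 and 3, with 2 up and 0 down when 12 h replicates 2 and 3 were both left out. The others that rose with offsets were ANKZF1 (0.67), MXI1 (0.57), KDM4B (0.53), HK2 (0.32), CA12 (0.29), BNIP3L (0.27) and ERO1A (0.26). VEGFA, the angiogenic factor often read as the hallmark of hypoxia, had 65.5, 60.1 and 77.5 CPM at 6 h and 69.6, 75.2 and 73.6 CPM at 12 h, overlapped as CPM and fell with offsets (offset log2 FC -0.26 ± 0.08, adjusted p = 0.04), so the list did not move as one. Of 21 tested glycolysis genes, 11 rose and 2 fell by TMM scaling, but 2 rose, HK2 and SLC2A1, and 3 fell, GAPDH (-0.45), SLC16A1 (-0.44) and TPI1 (-0.37), with offsets. The glycolysis counts with offsets are 9.52% and 14.3% of those tested against 5.64% and 6.45% of all genes. Of the glycolysis genes, 1, 5 and 2 rose without 6 h replicates 1, 2 and 3 and 2, 2 and 0 without 12 h replicates 1, 2 and 3, and 2, 1 and 4 fell without 6 h replicates 1, 2 and 3 and 2, 1 and 1 without 12 h replicates 1, 2 and 3. For SLC2A1, leaving out 6 h replicate 1 or 12 h replicate 3 ended the call with offsets (adjusted p = 0.06 to 0.0691). For VEGFA, leaving out 6 h replicate 1 or 3 or 12 h replicate 1 or 2 or 3 ended the call with offsets (adjusted p = 0.0642 to 0.22).

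Some FOXO, glucose-sensing and quiescence genes passed the test. In this list 6 rose and 2 fell of 27 tested by TMM scaling (median log2 FC 0.21), and 5 rose and 0 fell with offsets (median 0.12), or 18.5% and 0% of those tested against 5.64% and 6.45% of all genes. Of the FOXO, glucose-sensing and quiescence genes, 3, 2 and 3 rose without 6 h replicates 1, 2 and 3 and 5, 3 and 2 without 12 h replicates 1, 2 and 3, and 0, 0 and 0 fell without 6 h replicates 1, 2 and 3 and 0, 1 and 0 without 12 h replicates 1, 2 and 3, with 1 up and 0 down when 12 h replicates 2 and 3 were both left out. CITED2, a competitor of hypoxia-inducible factors for their coactivator, had 6.60, 5.01 and 6.28 CPM at 6 h and 8.71, 8.16 and 11.2 CPM at 12 h (offset log2 FC 0.68 ± 0.21, adjusted p = 0.035). KLHL24, a ubiquitin ligase adaptor, had 12.1, 11.4 and 11.3 CPM at 6 h and 16.9, 16.8 and 14.2 CPM at 12 h (offset log2 FC 0.64 ± 0.12, adjusted p = 0.00093). Neither gene overlapped between the times. CCNG2 (1.12), the cyclin-dependent kinase inhibitor CDKN1B (0.33) and the insulin receptor INSR (0.29) completed the genes that rose. The INSR call ended whichever single library was left out. TXNIP, which reports intracellular glucose, had 3.02, 3.79 and 2.82 CPM at 6 h and 3.30, 3.42 and 2.52 CPM at 12 h, overlapped, and was not called with offsets (log2 FC 0.11, adjusted p = 0.79). For CITED2, leaving out 6 h replicate 1 or 2 or 3 or 12 h replicate 3 ended the call with offsets (adjusted p = 0.0633 to 0.184).

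**Figure D3:**
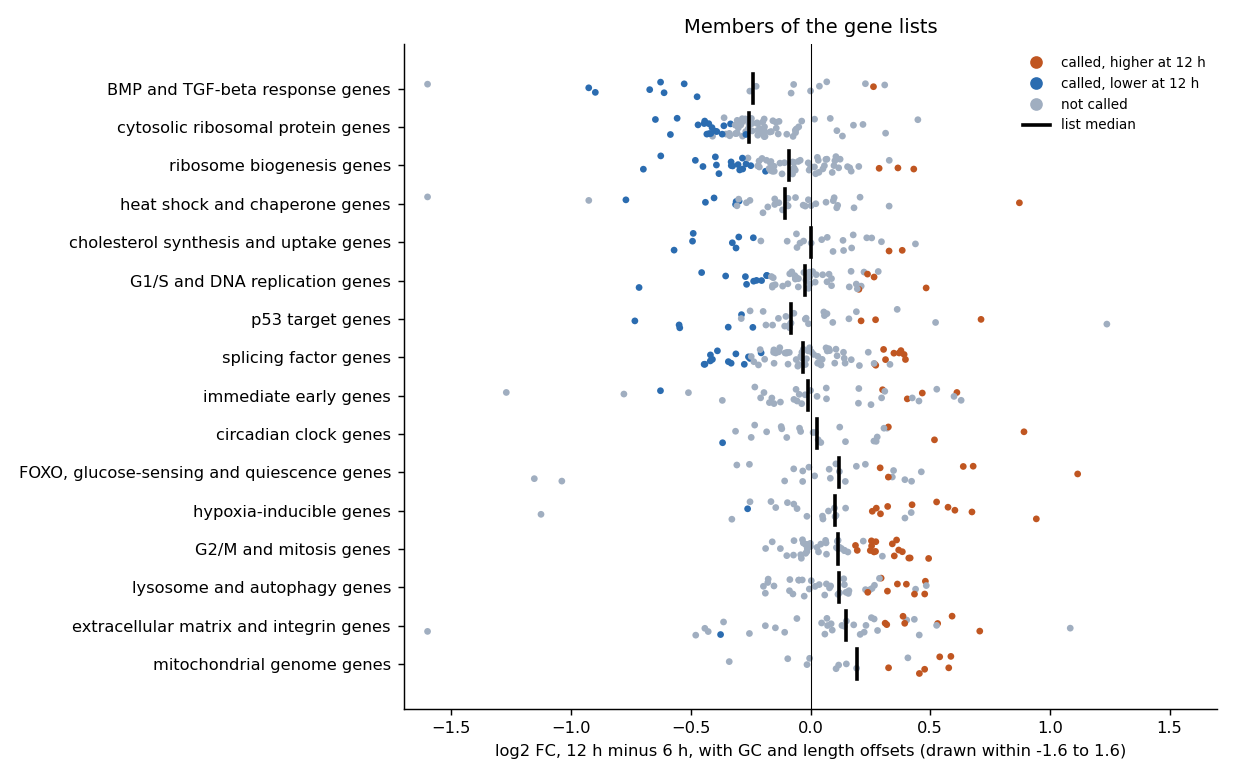
Log2 FC (12 h minus 6 h) with GC and length offsets of each tested member of 16 gene lists, 1 point per gene, with called genes in orange (higher at 12 h) or blue (lower), uncalled genes in grey and the list median as a bar; values past the axis limits are drawn at the edge. G2/M genes were called in the upward direction only (16) and cytosolic ribosomal protein genes in the downward direction only (17), while most members of every list shown were not called.

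Ribosome genes that passed the test were mostly lower at 12 h. Of the 79 cytosolic ribosomal protein genes, 6 rose and 25 fell by TMM scaling (median log2 FC -0.29), and 0 rose and 17 fell with offsets (median -0.26), or 0% and 21.5% of those tested against 5.64% and 6.45% of all genes. RPL10A had 680.0, 985 and 731 CPM at 6 h and 719.7, 678 and 683 CPM at 12 h (log2 FC -0.20 ± 0.14, adjusted p = 0.28 and offset log2 FC -0.65 ± 0.16, adjusted p = 0.0093). RPS29 had 376, 571 and 383 CPM at 6 h and 282, 294 and 306 CPM at 12 h (log2 FC -0.59 ± 0.17, adjusted p = 0.013 and offset log2 FC -0.56 ± 0.18, adjusted p = 0.041). RPL10A overlapped as CPM and RPS29 did not. RPL32 (-0.47), RPS19 (-0.44), RPS15A (-0.44) and RPL31 (-0.43) were among the others that fell. Without 6 h replicate 2, which had the highest values of RPL10A and RPS29, none fell, and the median was -0.12. The 6 that rose by TMM scaling, such as RPS28 (0.71) and RPS2 (0.59), were not called with offsets. Of the cytosolic ribosomal protein genes, 0, 1 and 0 rose without 6 h replicates 1, 2 and 3 and 0, 0 and 0 without 12 h replicates 1, 2 and 3, and 10, 0 and 23 fell without 6 h replicates 1, 2 and 3 and 7, 3 and 1 without 12 h replicates 1, 2 and 3. Genes of this family have many processed copies, with which reads may be shared, so single values are uncertain. Of 68 ribosome biogenesis genes, 12 rose and 22 fell by TMM scaling (median log2 FC -0.17), and 3 rose and 17 fell with offsets (median -0.09), or 4.41% and 25% of those tested against 5.64% and 6.45% of all genes. Of the ribosome biogenesis genes, 0, 4 and 3 rose without 6 h replicates 1, 2 and 3 and 2, 2 and 2 without 12 h replicates 1, 2 and 3, and 16, 12 and 17 fell without 6 h replicates 1, 2 and 3 and 17, 14 and 10 without 12 h replicates 1, 2 and 3, with 0 up and 1 down when 12 h replicates 2 and 3 were both left out. UBTF, the transcription factor of ribosomal RNA genes, had 130.1, 172 and 158 CPM at 6 h and 120.0, 135 and 139 CPM at 12 h (log2 FC -0.22 ± 0.10, adjusted p = 0.11 and offset log2 FC -0.70 ± 0.09, adjusted p = 4.2e-05), and NIP7, needed for pre-rRNA processing, had 148, 166 and 136 CPM at 6 h and 101, 93.1 and 99.6 CPM at 12 h (log2 FC -0.61 ± 0.11, adjusted p = 0.00066 and offset log2 FC -0.63 ± 0.09, adjusted p = 0.0001). UBTF overlapped between the times as CPM, and NIP7 did not. DDX21 (-0.33), DDX18 (-0.33), DKC1 (-0.40), NOP56 (-0.39), and the RNA polymerase I subunits POLR1B (-0.28), POLR1C (-0.33) and POLR1E (-0.30) fell as well, while BOP1 (0.43), TCOF1 (0.37) and DDX27 (0.29) rose. Among 29 tested small nucleolar RNA host genes, 3 fell with offsets, ZFAS1 (-0.48), SNHG15 (-0.41) and SNHG12 (-0.40), and 0 rose. The host genes that fell are 10.3% of those tested against 6.45% of all genes. For RPL10A, leaving out 6 h replicate 2 or 12 h replicate 3 ended the call with offsets (adjusted p = 0.0522 to 0.0732). For RPS29, leaving out 6 h replicate 2 or 12 h replicate 1 or 2 or 3 ended the call with offsets (adjusted p = 0.0904 to 0.266).

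With offsets, the cytosolic chaperone genes that passed the test were lower at 12 h, apart from HSPB1. In the heat shock list 3 rose and 11 fell of 36 tested by TMM scaling (median log2 FC -0.17), and 1 rose and 6 fell with offsets (median -0.11), or 2.78% and 16.7% of those tested against 5.64% and 6.45% of all genes. HSPA8, the constitutive HSP70 that folds new proteins, was among the most abundant transcripts, with 6971, 7680.0 and 6368 CPM at 6 h and 4265, 4113 and 4290.0 CPM at 12 h (log2 FC -0.73 ± 0.12, adjusted p = 0.00052 and offset log2 FC -0.77 ± 0.11, adjusted p = 0.00012). HSPB1, a small heat shock protein, had 5.82, 12.8 and 11 CPM at 6 h and 24.6, 27.97 and 27.4 CPM at 12 h (log2 FC 1.46 ± 0.29, adjusted p = 0.0015 and offset log2 FC 0.87 ± 0.18, adjusted p = 0.0024). Both genes were apart between the times, and for HSPB1 replicate 1 at 6 h was the lowest of the 6 libraries. Of the heat shock and chaperone genes, 1 rose whichever single library was left out, and 5, 5 and 6 fell without 6 h replicates 1, 2 and 3 and 6, 5 and 5 without 12 h replicates 1, 2 and 3. DNAJB1 (-0.44), DNAJB4 (-0.40), DNAJA1 (-0.31) and HSPA13 (-0.31) and the chaperonin subunit CCT2 (-0.30) fell with offsets. HSF1, the heat shock factor, rose by TMM scaling (0.88, adjusted p = 0.0039) and was not called with offsets (0.10, adjusted p = 0.54). In the endoplasmic reticulum DNAJB9 (-0.38), DNAJC3 (-0.30), MANF (-0.28) and XBP1 (-0.18) fell and PDIA4 (0.23) rose of 24 genes tested, and of 37 proteasome genes 2 fell, PSMC1 (-0.43) and PSMD8 (-0.26), or 5.41% against 6.45% of all genes. In the endoplasmic reticulum list the called genes were 4.17% and 16.7% of those tested against 5.64% and 6.45% of all genes. Of the endoplasmic reticulum chaperone and unfolded protein genes, 0, 1 and 0 rose without 6 h replicates 1, 2 and 3 and 1, 0 and 0 without 12 h replicates 1, 2 and 3, and 1, 1 and 4 fell without 6 h replicates 1, 2 and 3 and 1, 1 and 1 without 12 h replicates 1, 2 and 3. Of the proteasome subunit genes, 0 rose whichever single library was left out, and 1, 0 and 2 fell without 6 h replicates 1, 2 and 3 and 1, 1 and 0 without 12 h replicates 1, 2 and 3.

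Lipid genes split. In the cholesterol list 6 rose and 7 fell of 27 tested by TMM scaling (median log2 FC -0.01), and 2 rose and 7 fell with offsets (median 0.00), or 7.41% and 25.9% of those tested against 5.64% and 6.45% of all genes, and the TMM median turned to 0.06 under scaling by library size alone. Of the cholesterol synthesis and uptake genes, 2, 3 and 4 rose without 6 h replicates 1, 2 and 3 and 3, 2 and 2 without 12 h replicates 1, 2 and 3, and 6, 5 and 6 fell without 6 h replicates 1, 2 and 3 and 6, 6 and 6 without 12 h replicates 1, 2 and 3. HMGCS1, the first committed step of the mevalonate pathway, had 169, 178 and 152 CPM at 6 h and 127, 126 and 110.3 CPM at 12 h (log2 FC -0.46 ± 0.09, adjusted p = 0.0019 and offset log2 FC -0.30 ± 0.07, adjusted p = 0.0056). IDI1, an isomerase of isoprene units, had 169, 165 and 153 CPM at 6 h and 112, 104 and 97.1 CPM at 12 h (log2 FC -0.64 ± 0.11, adjusted p = 0.0008 and offset log2 FC -0.49 ± 0.07, adjusted p = 0.00012). Neither overlapped between the times. FDPS (-0.57), FDFT1 (-0.49) and ACAT2 (-0.33) were among the others that fell with offsets, whereas MSMO1 (0.38) and INSIG1 (0.33), which retains SREBP in the endoplasmic reticulum, rose. MVD, MVK, LSS, TM7SF2 and SREBF2 rose by TMM scaling only (0.56 to 0.95). In the fatty acid list SREBF1 (0.34) and LPIN1 (0.44) rose and GPAM (-0.50), ELOVL1 (-0.46) and ACSL3 (-0.22) fell of 19 tested with offsets, and FASN, at 65.2% GC, had 45.9, 92.2 and 104 CPM at 6 h and 171, 184 and 189.7 CPM at 12 h (log2 FC 1.18 ± 0.30, adjusted p = 0.0073 and offset log2 FC 0.41 ± 0.15, adjusted p = 0.072). FASN thus passed by TMM scaling and not with offsets. In the fatty acid list the genes called with offsets were 10.5% and 15.8% of those tested against 5.64% and 6.45% of all genes.

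Genes of lysosomes and of the extracellular matrix that passed the test were higher at 12 h, with few exceptions. In the lysosome and autophagy list 22 rose and 0 fell of 42 tested by TMM scaling (median log2 FC 0.29), and 8 rose and 0 fell with offsets (median 0.12), or 19.05% and 0% of those tested against 5.64% and 6.45% of all genes. CTSD, the protease cathepsin D, had 7.39, 15.2 and 16.1 CPM at 6 h and 27.1, 29.2 and 30.4 CPM at 12 h (log2 FC 1.18 ± 0.23, adjusted p = 0.0013 and offset log2 FC 0.48 ± 0.13, adjusted p = 0.015). LAMP1, a lysosomal membrane protein, had 88.9, 96.2 and 103 CPM at 6 h and 118, 136 and 143 CPM at 12 h (offset log2 FC 0.29 ± 0.07, adjusted p = 0.0087). Every 12 h library was above every 6 h library for both genes. Of the lysosome and autophagy genes, 5, 9 and 7 rose without 6 h replicates 1, 2 and 3 and 7, 6 and 5 without 12 h replicates 1, 2 and 3, and 0 fell whichever single library was left out. ATG2A (0.48), RRAGD (0.43), ATP6V1H (0.40), UVRAG (0.32) and ATP6V1A (0.24) were among the others that rose with offsets. In the extracellular matrix and integrin list 14 rose and 2 fell of 39 tested by TMM scaling (median log2 FC 0.19), and 7 rose and 1 fell with offsets (median 0.15), or 17.9% and 2.56% of those tested against 5.64% and 6.45% of all genes. Of the extracellular matrix and integrin genes, 2, 8 and 4 rose without 6 h replicates 1, 2 and 3 and 5, 5 and 4 without 12 h replicates 1, 2 and 3, and 1 fell whichever single library was left out. COL1A2, a chain of type I collagen, had 28, 43.1 and 36.6 CPM at 6 h and 53.4, 60.7 and 57.4 CPM at 12 h (log2 FC 0.68 ± 0.15, adjusted p = 0.0037 and offset log2 FC 0.71 ± 0.13, adjusted p = 0.0013), and COL6A2 of type VI collagen had 2.51, 4.54 and 5.09 CPM at 6 h and 10.9, 9.96 and 10.3 CPM at 12 h (offset log2 FC 0.59 ± 0.15, adjusted p = 0.0096). Both were apart between the times. LAMA5 (0.53), COL6A1 (0.39), COL3A1 (0.39), ITGA5 (0.32) and SPARC (0.31) rose as well and the integrin subunit ITGAV (-0.38) fell. Among the mesenchymal markers SNAI1 (1.49) and TWIST1 (0.40) rose and ZEB1 (-0.52) fell, with SNAI1 at low levels of 0.144, 0.0946 and 0.364 CPM at 6 h and 0.528, 0.579 and 1.03 CPM at 12 h. For CTSD, leaving out 6 h replicate 1 ended the call with offsets (adjusted p = 0.14). For LAMP1, leaving out 12 h replicate 3 ended the call with offsets (adjusted p = 0.0525). For COL6A2, leaving out 6 h replicate 1 ended the call with offsets (adjusted p = 0.0802).

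Transcripts of the mitochondrial genome that passed the test with offsets were higher at 12 h, and nuclear genes of mitochondrial proteins were called in both directions. The difference between these lists was not tested. Of the 15 listed genes of the mitochondrial genome, 1 rose and 2 fell by TMM scaling (median log2 FC 0.07), and 6 rose and 0 fell with offsets (median 0.19), or 40% and 0% of those tested against 5.64% and 6.45% of all genes. MT-ND4, a subunit of complex I, had 6552, 7889 and 6152 CPM at 6 h and 9008, 9488 and 8168 CPM at 12 h (log2 FC 0.37 ± 0.11, adjusted p = 0.017 and offset log2 FC 0.59 ± 0.11, adjusted p = 0.0015). MT-RNR2, the large mitochondrial rRNA, had 6349, 8914 and 5561 CPM at 6 h and 4271, 4526 and 5037 CPM at 12 h (log2 FC -0.59 ± 0.16, adjusted p = 0.01 and offset log2 FC -0.34 ± 0.13, adjusted p = 0.096). MT-ND4 was higher and MT-RNR2 lower in every 12 h library. MT-ND4L (0.58), MT-ATP8 (0.54), MT-ATP6 (0.48), MT-ND6 (0.45) and MT-ND2 (0.33) also rose with offsets. Of 76 nuclear genes of oxidative phosphorylation 2 rose, ATP5F1D (0.64) and SDHA (0.36), and 7 fell, such as COX6B1 (-0.43) and CYCS (-0.42), and of 77 mitochondrial ribosomal protein genes 6 rose, such as MRPL2 (0.49), and 8 fell, such as MRPL21 (-0.81) and MRPL36 (-0.75). These counts are 2.63% and 9.21% of those tested against 5.64% and 6.45% of all genes for oxidative phosphorylation, and 7.79% and 10.4% for mitochondrial ribosomal proteins. Of the mitochondrial genome genes, 4, 6 and 4 rose without 6 h replicates 1, 2 and 3 and 6, 4 and 5 without 12 h replicates 1, 2 and 3, and 0, 0 and 1 fell without 6 h replicates 1, 2 and 3 and 0, 0 and 0 without 12 h replicates 1, 2 and 3. Of the nuclear oxidative phosphorylation genes, 0, 4 and 2 rose without 6 h replicates 1, 2 and 3 and 2, 2 and 2 without 12 h replicates 1, 2 and 3, and 3, 1 and 12 fell without 6 h replicates 1, 2 and 3 and 3, 2 and 1 without 12 h replicates 1, 2 and 3. Of the mitochondrial ribosomal protein genes, 1, 4 and 2 rose without 6 h replicates 1, 2 and 3 and 4, 2 and 2 without 12 h replicates 1, 2 and 3, and 8, 4 and 9 fell without 6 h replicates 1, 2 and 3 and 5, 5 and 4 without 12 h replicates 1, 2 and 3.

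Splicing factor genes were called in both directions. Of 74 genes, 15 rose and 25 fell by TMM scaling (median log2 FC -0.17), and 9 rose and 13 fell with offsets (median -0.03), or 12.2% and 17.6% of those tested against 5.64% and 6.45% of all genes. TRA2B had 512, 504 and 466 CPM at 6 h and 339.6, 316 and 325 CPM at 12 h (log2 FC -0.60 ± 0.09, adjusted p = 0.00024 and offset log2 FC -0.44 ± 0.08, adjusted p = 0.00061). SRSF7 had 426, 479 and 413 CPM at 6 h and 302, 280.4 and 270.0 CPM at 12 h (log2 FC -0.63 ± 0.10, adjusted p = 0.00033 and offset log2 FC -0.44 ± 0.08, adjusted p = 0.00097). CLK1, a kinase of SR proteins, had 80.3, 65.2 and 73.02 CPM at 6 h and 51.8, 48.7 and 43.7 CPM at 12 h (log2 FC -0.60 ± 0.12, adjusted p = 0.0015 and offset log2 FC -0.39 ± 0.09, adjusted p = 0.0048). In these 3 genes the times did not overlap. Of the splicing factor genes, 1, 10 and 5 rose without 6 h replicates 1, 2 and 3 and 8, 2 and 0 without 12 h replicates 1, 2 and 3, and 11, 11 and 13 fell without 6 h replicates 1, 2 and 3 and 11, 10 and 8 without 12 h replicates 1, 2 and 3. CLK4 (-0.42), SRSF3 (-0.42), SRSF2 (-0.34), SRSF10 (-0.21), TRA2A (-0.28) and HNRNPH1 (-0.31) fell with offsets, and SRSF4 (0.27), HNRNPD (0.40), HNRNPA0 (0.38), SNRPB (0.39) and SRRM1 (0.37) rose.

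**Figure D4:**
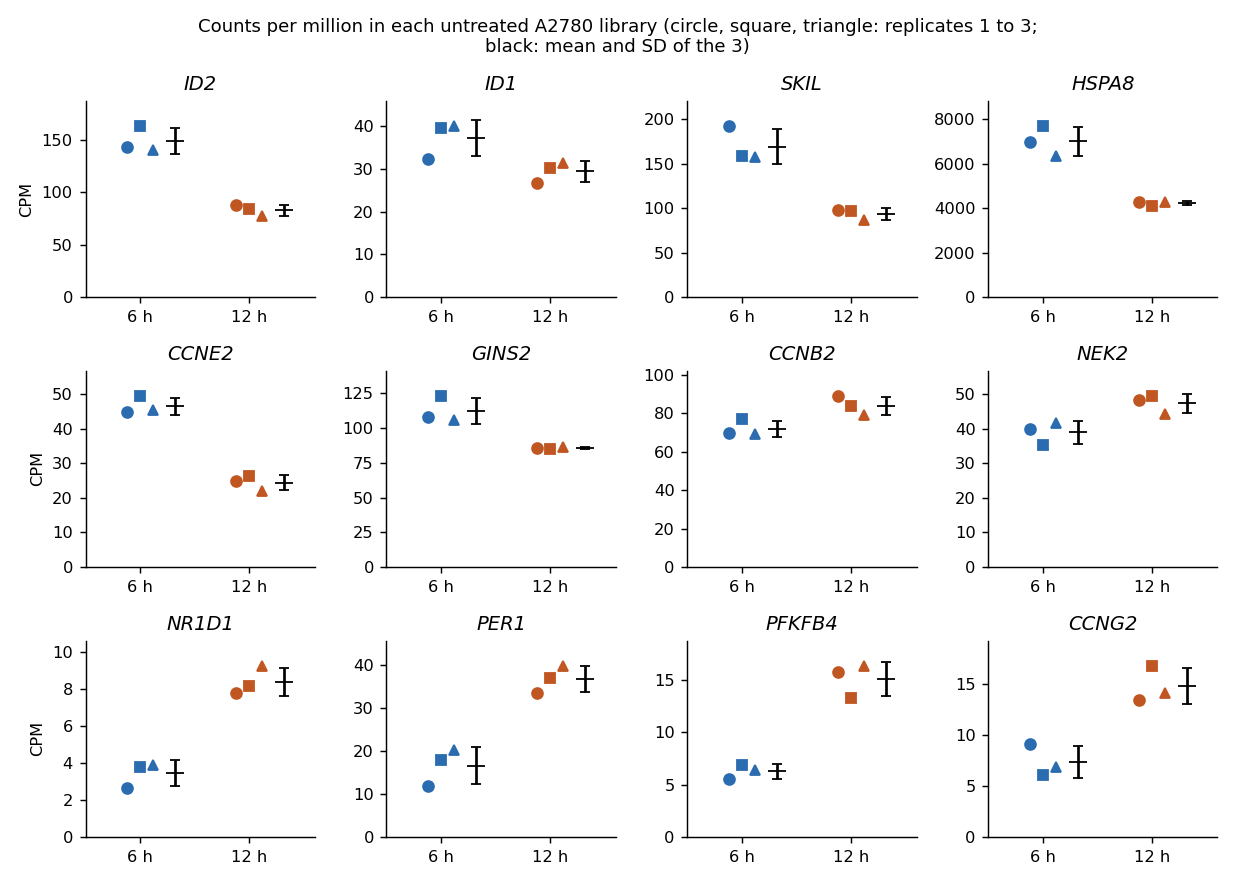
CPM in each of the 6 untreated A2780 libraries for 12 genes named in the text, with replicates 1 to 3 as circle, square and triangle at 6 h (blue) and 12 h (orange) and the mean and SD of the 3 in black; every axis starts at 0. The 12 genes were picked among those whose libraries do not overlap, so the 3 libraries of one time lie wholly to one side of the other time by choice, with ID2, ID1, SKIL, HSPA8, CCNE2 and GINS2 lower at 12 h and CCNB2, NEK2, NR1D1, PER1, PFKFB4 and CCNG2 higher, whereas UBTF, SRF, CDKN1A, SMAD6, RPL10A, CRY1 and VEGFA, also called with offsets, overlap as CPM and are not shown.

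Stress pathways moved in a few genes each. Of 34 tested p53 targets, 3 rose, APAF1 (0.71), XPC (0.27) and CCNG1 (0.21), and 6 fell with offsets, among them GADD45A (-0.73), CDKN1A (-0.55) and the death receptor FAS (-0.55), or 8.82% and 17.6% of those tested against 5.64% and 6.45% of all genes. Of the p53 target genes, 1, 3 and 2 rose without 6 h replicates 1, 2 and 3 and 2, 1 and 1 without 12 h replicates 1, 2 and 3, and 5, 4 and 7 fell without 6 h replicates 1, 2 and 3 and 4, 4 and 3 without 12 h replicates 1, 2 and 3, with 1 up and 0 down when 12 h replicates 2 and 3 were both left out. CDKN1A, the cyclin-dependent kinase inhibitor p21, had 39.8, 59.3 and 55.02 CPM at 6 h and 43.1, 44.9 and 45.8 CPM at 12 h, overlapped as CPM and was not called by TMM scaling (adjusted p = 0.16 and offset log2 FC -0.55 ± 0.09, adjusted p = 0.00023). Of 34 ATF4 response genes, 15 rose and 4 fell by TMM scaling, and 3 rose, CTH (0.59), STC2 (0.27) and PCK2 (0.27), and 4 fell, ATF4 itself (-0.46), asparagine synthetase ASNS (-0.33), ATF5 (-0.30) and the cystine transporter SLC7A11 (-0.25), with offsets, or 8.82% and 11.8% of those tested against 5.64% and 6.45% of all genes. Of the ATF4 stress response genes, 1, 2 and 3 rose without 6 h replicates 1, 2 and 3 and 3, 2 and 1 without 12 h replicates 1, 2 and 3, and 2, 0 and 3 fell without 6 h replicates 1, 2 and 3 and 4, 2 and 1 without 12 h replicates 1, 2 and 3. Of 20 aminoacyl-tRNA synthetase genes 2 fell, TARS1 (-0.29) and NARS1 (-0.25), and of 27 NRF2 targets 3 fell, HMOX1 (-0.53), TXNRD1 (-0.28) and SLC7A11, with 0 rising in either list. The genes that fell are 10% of the synthetase genes tested and 11.1% of the NRF2 targets, against 6.45% of all genes. Of the aminoacyl-tRNA synthetase genes, 0, 2 and 0 rose without 6 h replicates 1, 2 and 3 and 0, 0 and 0 without 12 h replicates 1, 2 and 3, and 1, 0 and 2 fell without 6 h replicates 1, 2 and 3 and 2, 1 and 0 without 12 h replicates 1, 2 and 3. Of the NRF2 target genes, 0 rose whichever single library was left out, and 2, 1 and 2 fell without 6 h replicates 1, 2 and 3 and 3, 1 and 1 without 12 h replicates 1, 2 and 3. SLC30A1, the zinc exporter, fell (offset log2 FC -0.64 ± 0.16, adjusted p = 0.0093) with 38.7, 29.2 and 32.2 CPM at 6 h and 19.3, 18.1 and 19.99 CPM at 12 h, which did not overlap. For SLC30A1, leaving out 6 h replicate 1 ended the call with offsets (adjusted p = 0.0702).

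Of 39 interferon-response genes, ISG15 (0.76), USP18 (0.31), STAT2 (0.23) and IFITM3 (0.23) rose and XAF1 (-0.70), IFIT3 (-0.35) and IFIT5 (-0.20) were among those that fell with offsets, or 10.3% and 10.3% of those tested against 5.64% and 6.45% of all genes. Of the interferon-response genes, 2, 3 and 2 rose without 6 h replicates 1, 2 and 3 and 3, 2 and 1 without 12 h replicates 1, 2 and 3, and 3, 3 and 3 fell without 6 h replicates 1, 2 and 3 and 4, 4 and 2 without 12 h replicates 1, 2 and 3. ISG15, a ubiquitin-like modifier, had 5.10, 7.95 and 11.6 CPM at 6 h and 21.4, 21.1 and 17.9 CPM at 12 h, and XAF1 had 37.6, 30.6 and 37.8 CPM at 6 h and 22.2, 22.8 and 20.4 CPM at 12 h, without overlap in either. Of 16 Notch pathway genes, 6 rose and 1 fell by TMM scaling, whereas with offsets the receptor NOTCH3 (0.34) rose and the target HEY1 (-0.56) and HES6 (-0.43) fell. The Notch counts with offsets are 6.25% and 12.5% of those tested against 5.64% and 6.45% of all genes. The HES6 call ended whichever single library was left out. Of the Notch pathway genes, 0, 1 and 0 rose without 6 h replicates 1, 2 and 3 and 1, 0 and 0 without 12 h replicates 1, 2 and 3, and 1 fell whichever single library was left out. Of 23 tested YAP and TAZ targets, AXL (0.35) rose and GADD45B (-0.66) and RBMS3 (-0.30) fell with offsets. These counts are 4.35% and 8.70% of those tested against 5.64% and 6.45% of all genes. Of 11 tested WNT targets DKK1 (0.21) rose (9.09%) and 0 fell. Of 15 tested NF-kappa-B targets NFKB2 (0.52) rose (6.67%) and 0 fell. The DKK1 call held in 1 single removal only.

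Among genes that do not code for protein, the largest increases by TMM scaling were ENSG00000271581 (1.42), PKD1P4 (1.41), ENSG00000259952 (1.23), ENSG00000262413 (1.18) and PKD1P6 (1.16) and the largest decreases HSPA8P1 (-0.87), ENSG00000204620 (-0.87), RPL37P2 (-0.84), RPS27AP5 (-0.82) and MIR22HG (-0.80). With offsets the largest increases were MT-TD (1.49), MT-TS1 (1.12), VIM-AS1 (1.12), GTF2IP13 (1.05) and ENSG00000257270 (0.95) and the largest decreases ENSG00000204620 (-1.24), ENSG00000233223 (-1.16), BZW1-AS1 (-1.02), PNN-AS1 (-0.94) and ENSG00000258924 (-0.92). PKD1P4 and PKD1P6 are copies of PKD1, HSPA8P1 of HSPA8, GTF2IP13 of GTF2I, and RPL37P2 and RPS27AP5 of ribosomal protein genes, so their reads may belong to the parent genes. Whether counting used strand is not given in the sources used here, so VIM-AS1, BZW1-AS1 and PNN-AS1 cannot be told apart from the genes they overlap. MIR22HG, the host RNA of miR-22, had 13.6, 11.9 and 14.5 CPM at 6 h and 8.05, 7.64 and 7.40 CPM at 12 h (log2 FC -0.80 ± 0.11, adjusted p = 0.00017 and offset log2 FC -0.85 ± 0.10, adjusted p = 7.9e-06), with every 12 h library below every 6 h library. Of 168 tested snoRNA genes, 19 fell and 1 rose by TMM scaling (median log2 FC -0.36), and 6 fell and 0 rose with offsets (median -0.21), where the 3.57% called lower is below the 6.45% of all genes.

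The same times in untreated A2780cis, which share no library with the A2780 comparison, gave each A2780 difference a value beside it. With offsets 2955 genes were called in A2780cis (14.6%; 6.17% of tested genes higher at 12 h and 8.43% lower), and 1042 genes were called in both lines, 1032 of them in the same direction, which is 42.6% of the A2780 calls and 35.3% of the A2780cis calls. Of the 2447 genes called in A2780, 2202 had the same sign in A2780cis. CCNE2 (-0.31), ID2 (-0.53), SKIL (-0.31), UBTF (-0.51), NIP7 (-0.55), HSPA8 (-0.55) and FDPS (-0.66) fell and PFKFB4 (0.53), CCNB2 (0.25), CENPA (0.31), HSPB1 (1.00) and COL6A2 (0.83) rose in A2780cis as well (offset log2 FC). Several lists ran otherwise there. With offsets, 11 G1/S genes rose and 6 fell in A2780cis, and 6 cholesterol genes rose and 2 fell. Of the immediate early genes 0 rose and 16 fell, of hypoxia-inducible genes 3 and 4, and of mitochondrial genome genes 0 and 2. Other lists ran the same way as in A2780, such as G2/M genes (7 and 0) and ribosome biogenesis genes (4 and 22). No list was tested for a difference between the lines. NR1D1 (0.18, adjusted p = 0.38), PER1 (0.24, adjusted p = 0.099) and CCNG2 (0.30, adjusted p = 0.34) were not called there, but the difference between the lines was not called for these genes either.

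A test of the difference between the lines, the interaction of line and time, called 6 genes by TMM scaling (0.0296%) and 53 with offsets (0.262%). EGR1 rose in A2780 and fell in A2780cis, with an offset log2 FC of 0.61 against -0.92 (difference 1.53, adjusted p = 0.00053). The other 5 genes called by TMM scaling were LINC02303, CTH, KDM5B, DKK1 and SLC2A3, each with a higher log2 FC in A2780. Genes that fell in A2780 and not in A2780cis with offsets were ID1 (-0.67 against -0.04, adjusted p of the difference = 0.0051), NEXN (-0.75 against 0.06, adjusted p of the difference = 0.0077), IDI1 (-0.49 against 0.13, adjusted p of the difference = 0.0051), MIR22HG (-0.85 against -0.11, adjusted p of the difference = 0.011) and SMAD9 (-0.47 against 0.28, adjusted p of the difference = 0.037). Genes that rose in A2780 and not in A2780cis were MYC (0.47 against -0.21, adjusted p of the difference = 0.013), HFE (0.94 against 0.07, adjusted p of the difference = 0.018) and MORN4 (1.04 against 0.14, adjusted p of the difference = 0.028). The difference between the lines was thus called for ID1 and MYC with offsets only, and was not called for ID2, SKIL or CCNE2. These genes were not tested against each other, and single calls of the difference were not followed when libraries were left out.

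**Figure D5:**
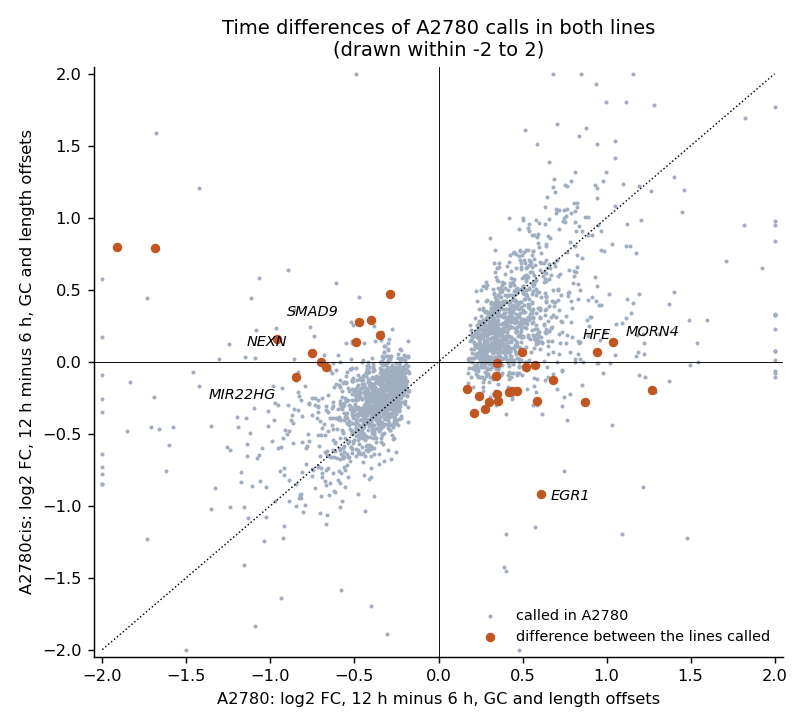
Offset log2 FC (12 h minus 6 h) of the 2447 genes called in untreated A2780 (horizontal axis) and of the same genes in untreated A2780cis (vertical axis), each point 1 gene, with genes whose difference between the lines was called in orange and values beyond 2 drawn at the edge. Most points lie in the quadrants of equal sign (2202 of 2447), and EGR1 lies at 0.61 and -0.92.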

How the data were processed

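Whole-transcriptome libraries (TruSeq Stranded Total RNA, 1 library per sample) were aligned by the authors with STAR 2.5.2b to GRCh38.p7 and assigned to genes with featureCounts. The deposited values are expected counts, not normalized, in which reads matching several genes can give fractions. The labels state single reads and the study's methods paired ends, and the strand setting of the counting is not given in the sources used here.

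Counts were rounded and fitted in edgeR 4.0.16 (R 4.3.3, limma 3.58.1) over all 24 libraries as 8 groups, with TMM scaling, filterByExpr (minimum count 10, total 15) and 16 residual degrees of freedom. Quasi-likelihood tests were adjusted by Benjamini-Hochberg at 0.05. Offsets were lowess curves (span 0.3, prior count 2) of log2 CPM deviations on exonic GC content, then length, from GENCODE release 44, which matched 56948 of 63299 gene IDs. Scripts were tested on simulated counts. DESeq2 1.42.0, other scalings, filters and left-out libraries were alternatives.

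Named genes were the 12 largest called protein-coding changes per direction whose log2 CPM averaged 2 or more and whose libraries were apart between the times, 5 per direction for other genes, and list members; more list members are named than the 5 first planned per list, chosen after their values were seen. The members and lists were chosen with earlier results of these data known. The 6 compared libraries totalled 11216446 to 19283327 counts. Some genes are not reported here.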

Additional observations from a re-analysis of the deposited data

Results flagged for a closer look

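The difference between the lines in their change from 6 h to 12 h was tested as an interaction of line and time with edgeR's quasi-likelihood test and Benjamini-Hochberg adjustment. Values are the log2 FC in untreated A2780 minus that in untreated A2780cis, so a positive value is a larger rise or smaller fall in A2780. By TMM scaling it was called for EGR1 (1.53 ± 0.19, adjusted p = 0.00039), LINC02303 (1.05 ± 0.16, adjusted p = 0.0048), CTH (0.96 ± 0.17, adjusted p = 0.034), DKK1 (0.68 ± 0.12, adjusted p = 0.034), SLC2A3 (0.58 ± 0.11, adjusted p = 0.044) and KDM5B (0.76 ± 0.14, adjusted p = 0.047). With GC and length offsets, the positive differences among the genes named here were those of LINC02303 (0.97 ± 0.10, adjusted p = 7.6e-06), EGR1 (1.53 ± 0.20, adjusted p = 0.00053), DKK1 (0.57 ± 0.09, adjusted p = 0.0019), CTH (0.86 ± 0.16, adjusted p = 0.011), BNIP3L (0.60 ± 0.11, adjusted p = 0.013), MYC (0.67 ± 0.13, adjusted p = 0.013), HFE (0.88 ± 0.17, adjusted p = 0.019), SLC2A3 (0.44 ± 0.09, adjusted p = 0.019), MORN4 (0.90 ± 0.18, adjusted p = 0.028), ZFP36L1 (0.58 ± 0.12, adjusted p = 0.032) and AXL (0.57 ± 0.12, adjusted p = 0.037). The negative differences were those of IDI1 (-0.63 ± 0.10, adjusted p = 0.0051), ID1 (-0.63 ± 0.10, adjusted p = 0.0051), NEXN (-0.81 ± 0.14, adjusted p = 0.0077), DNAJB4 (-0.69 ± 0.12, adjusted p = 0.011), MIR22HG (-0.74 ± 0.13, adjusted p = 0.011) and SMAD9 (-0.75 ± 0.16, adjusted p = 0.037).

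EGR1 is induced within minutes of growth factor stimulation, and its difference was the largest of the genes listed here under both fits. The lines also differed in the number of cells seeded, and A2780cis medium was supplemented with cisplatin for some passages to keep its resistance. Line, density and that earlier exposure cannot be told apart.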

How the results depend on the processing

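Against the 5435 genes called by TMM scaling (61.7% upward), counts stayed between 5113 and 7071 under the alternatives that kept all 6 libraries and had no offsets, but the share called upward moved to 52.2% with DESeq2's size factors, 71.9% under scaling by library size alone, 70.8% without a filter on low counts, 52.5% by DESeq2 and 54.7% for protein-coding genes only. GC and length offsets gave 2447 genes (46.6% upward), and 2416 (47.4%) with the replicate block. Leaving out 1 library gave 1846 (without 6 h replicate 1) to 5697 genes and 60.2 to 73.2% upward, with 2324 genes without 12 h replicate 3.

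Alternatives added after the data were seen were length offsets alone (6238 genes, 46.3% upward), GC offsets alone (2274, 54.7%), and both offsets with the compared libraries alone (2935, 48.8%), with protein-coding genes only (2490, 48.1%), with scaling by library size (2476, 47.3%) or with DESeq2's size factors (2438, 46.0%). Without 12 h replicates 2 and 3, 10 genes were called by TMM scaling (100% upward) and 73 with offsets (53.4%). Leaving out 1 library with offsets gave 1097, 1800 and 2058 genes (40.7, 54.8 and 41.9% upward) without 6 h replicates 1, 2 and 3, and 1910, 1382 and 1097 genes (50.7, 47.8 and 48.4%) without 12 h replicates 1, 2 and 3.

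The difference between the lines, called for 6 genes, was called for 2 with DESeq2's size factors, with the compared libraries alone and with thinned counts, for 3 with the compared libraries alone and the replicate block, for 145 without a filter, for 42 by DESeq2, for 53 with offsets and for 45 with offsets and the replicate block. In the added alternatives it was called for 47 genes with GC offsets alone, and with both offsets for 72 (protein-coding genes only), 56 (library size) and 53 (DESeq2's size factors). Without 12 h replicates 2 and 3, which leaves 1 A2780 library at 12 h, fewer genes were called both by TMM scaling and with offsets. Leaving out 1 library gave 1 to 6 genes by TMM scaling, and with offsets 39, 61 and 21 without 6 h and 36, 27 and 28 without 12 h replicates 1, 2 and 3. In protein-coding genes of mean log2 CPM of at least 2, the rho of log2 FC was 0.791 with GC content and -0.082 with length. The cause of these changes was not tested.

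Whether the replicate numbers pair the libraries was not settled. The deviations from the group means of same-numbered A2780 libraries had correlations of 0.256, -0.084 and 0.318. Those of different-numbered libraries ran from -0.408 to 0.222. The replicate block gave 5936 genes, and of 267 genes named, 264 kept their direction and side of the threshold and 3 more passed it.

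Alternatives with offsets turned the sign of ATF5 (0.10 against -0.36, -0.32, -0.31, -0.30 and -0.29), CCNG1 (-0.08 against 0.21, 0.23 and 0.24), HES6 (0.40 against -0.49, -0.47, -0.44, -0.43, -0.42 and -0.40), MCM7 (0.06 against -0.31, -0.28, -0.27 and -0.24) and VEGFA (0.11 against -0.33, -0.29, -0.27 and -0.26), giving the log2 FC by TMM scaling and then those of the opposite sign. Every 12 h library was deeper than every 6 h library, and counts thinned to the smallest library total gave 5173 genes. Genes under 1 CPM at 6 h, such as H2BC18 and SNAI1, rest on few counts.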
